A study of Bos grunniens and Bos grunniens x Bos taurus with 12 samples.

Results

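The testis of 4-year-old yaks was compared with that of 18-month-old yaks by Ribo-seq, which sequences ribosome footprints (RFs), the pieces of mRNA that ribosomes shield from nuclease digestion. Of the 12 libraries of the series, 6 enter the comparison: all 3 labelled yak 18 months and all 3 labelled yak 4 years, from 3 males of each age. The labels call the younger stage puberty and the older one sexual maturity, take the animals from the same cooperative, say that testes were taken by castration, and name no strain, genotype or treatment. The methods of the study instead describe the 4-year yaks as euthanized before the testes were collected, so how the testis was removed at each age is not settled. Libraries of 6-month-old yaks (3) are given as side values, and 3 of cattle-yaks enter a single alternative fit. Whole testis was used, so each value is an average over all cells of the organ, and fewer cells of a type cannot be told apart from less RNA, or less translation, per cell. The deposited table held 20965 genes, of which 13662 had a symbol.

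Before puberty the seminiferous tubules hold Sertoli cells, which nurse the germ line, and spermatogonia, its stem and dividing cells. At puberty spermatogonia enter meiosis as spermatocytes, and after meiosis haploid spermatids build the acrosome and the tail and pack their DNA with transition proteins and protamines. Around the tubules lie a basement membrane, contractile peritubular cells and an interstitium with Leydig cells, which make testosterone, vessels, macrophages and fibroblasts.

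The 18-month libraries held 21309151 to 24542362 counts on genes and the 4-year libraries 16304058 to 17862516. Testis markers were present throughout: insulin-like 3, a Leydig cell hormone, had rank 3 by mean FPKM at both ages. FPKM scales a count by the library total and the effective length of the gene.

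Replicate 2 of the 18-month group stood apart. Across genes, its log2(FPKM + 1) had a Pearson's r of 0.974 to 0.975 with the 4-year libraries, but of 0.876 with 18-month replicate 1 and 0.899 with replicate 3. Replicates 1 and 3 had an r of 0.974 with each other and of 0.796 to 0.837 with the 4-year libraries (genes are not independent replicates). They were not alike in their nearness to 6 months. With the 6-month libraries, replicate 1 had an r of 0.976 to 0.983 and replicate 3 of 0.941 to 0.957. In all, 287 genes had at most 3 counts in 18-month replicates 1 and 3 and at least 100 in every 4-year library, and 286 of them had more than 3 counts in replicate 2. There the scaled count was 57% of the 4-year mean at the median gene, and 39.3% to 80.7% between the 5th and 95th percentiles. TNP1, a transition protein that replaces histones in spermatids, had 0, 6016 and 9.72 FPKM at 18 months against 9820.5, 6993 and 10154 at 4 years, always in the order of replicates 1, 2 and 3. The origin of these RFs in 18-month replicate 2 was not tested. Counts of calls are therefore given with all 6 libraries and again with the 5 that remain without it, a choice made with the values of that library known.

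The ages were compared gene by gene with the quasi-likelihood test of edgeR, and p-values were adjusted by Benjamini and Hochberg's method over all tested genes. A differentially translated gene (DTG) passed an adjusted p of 0.05 and at least a doubling or halving, a log2 fold change (4 years over 18 months) of 1 or more in size. With all 6 libraries, 0 of 16175 tested genes were higher at 4 years (0%) and 6 were lower (0.0371%). At an unadjusted p below 0.05, 1915 genes were higher and 3816 lower, and DESeq2 on the same counts called 2092 higher and 2291 lower. With the 5 libraries, edgeR called 4277 of 16377 genes higher (26.1%) and 3033 lower (18.5%). Leaving out another library in place of 18-month replicate 2 gave 0 and 19 calls (higher and lower) for 18-month replicate 1, and 0 in both directions for 18-month replicate 3 and for each 4-year replicate. Irrespective of any test, all 4-year libraries lay above all 18-month libraries by scaled counts, with a fitted change of at least 2-fold, for 3082 tested genes (19.1%), and below them for 2496 (15.4%).

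For most genes called with the other 5 libraries, 18-month replicate 2 lay between. Of the 4277 genes called higher, it exceeded replicates 1 and 3 for 4219 and fell short of every 4-year library for 3445. Its median was 66.7% of the 4-year mean, beside 13.4% in replicate 1 and 16.2% in replicate 3. Of the 3033 genes called lower, it lay below replicates 1 and 3 for 2811 but above every 4-year library for 2772. Here its median was 1.71 times the 4-year mean, beside 3.51 and 2.82 times in replicates 1 and 3.

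**Figure D1:**
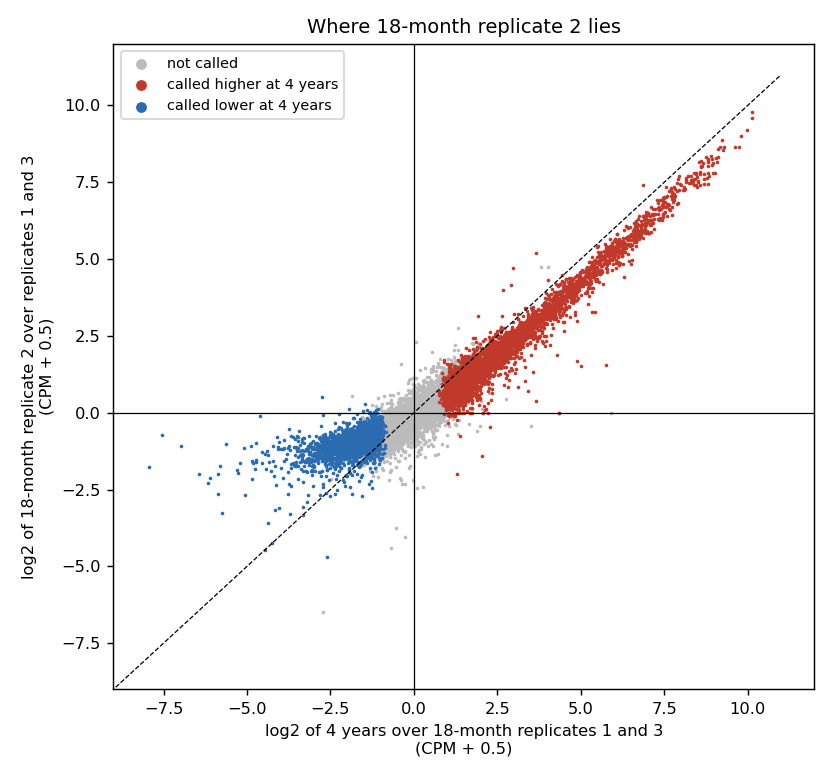
Each point is 1 of 16377 genes tested without 18-month replicate 2, by the log2 ratio of mean 4-year CPM (counts scaled to the library) to that of 18-month replicates 1 and 3 (horizontal) and of 18-month replicate 2 to the same libraries (vertical), with 0.5 added to each CPM; both axes share a denominator. Most genes called higher (red, 4277) lie just under the dashed line of equal ratios, whereas most genes called lower (blue, 3033) lie above it and nearer to 0.

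The 6 DTGs found with all libraries fell, and in each of them 18-month replicate 2 was far above the 4-year libraries. CRABP2, a binding protein that carries retinoic acid into the nucleus, had 1060.1, 682 and 843 FPKM at 18 months against 3.65, 4.27 and 7.15 at 4 years. Every 18-month value was far above every 4-year value, and CRABP2 fell by 7.65 ± 0.47 (log2, SE; adjusted p = 0.0332). SLC7A3, a transporter of cationic amino acids, had 120.7, 70.7 and 142 FPKM at 18 months against 0.68, 1.39 and 0.84 at 4 years (log2 fold change -7.05 ± 0.51, adjusted p = 0.0332). SPARCL1, a secreted glycoprotein of the extracellular matrix, had 273, 299.9 and 277 FPKM at 18 months against 47.6, 47.7 and 53.03 at 4 years (-2.71 ± 0.18, adjusted p = 0.0332). Its libraries spread little within an age, with means of 283 ± 14.7 and 49.4 ± 3.11 FPKM (SD, n = 3).

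The other 3 had an average CPM below that of the median tested gene and were named after their values were seen. HMGCLL1, an enzyme that cleaves hydroxymethylglutaryl-CoA, had 17.6, 28.2 and 38.4 FPKM at 18 months against 0.83, 1.21 and 0.67 at 4 years (log2 fold change -5.35 ± 0.42, adjusted p = 0.0396). PLS1, a plastin that bundles actin, had 14.4, 8.96 and 12.4 FPKM at 18 months against 0.64, 0.67 and 0.73 at 4 years (-4.34 ± 0.35, adjusted p = 0.042). RAPSN, which clusters acetylcholine receptors at the muscle synapse, had 19.9, 16.1 and 20.5 FPKM at 18 months against 1.51, 1.42 and 1.35 at 4 years (-3.95 ± 0.28, adjusted p = 0.0332). In none of the 6 did the ages overlap, and all 6 were also called with the 5 libraries, with log2 fold changes of -2.70 (SPARCL1) to -7.81 (CRABP2). None was called without 18-month replicate 3 (adjusted p = 0.174) or without a 4-year replicate (0.23 to 0.244).

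The 6-month libraries divide these genes. CRABP2 stood at 1206, 1209.9 and 1419 FPKM at 6 months, SPARCL1 at 824, 792 and 1019 FPKM. In both, every 6-month library exceeded every 18-month library. SLC7A3 was at 10.4, 15.8 and 1.93 FPKM, and HMGCLL1 at 6.68, 4.53 and 5.93 FPKM. These lay below all 18-month and above all 4-year libraries. PLS1 had 11.9, 12.7 and 16.97 FPKM at 6 months, and RAPSN 43.7, 24.9 and 18.3 FPKM.

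**Figure D2:**
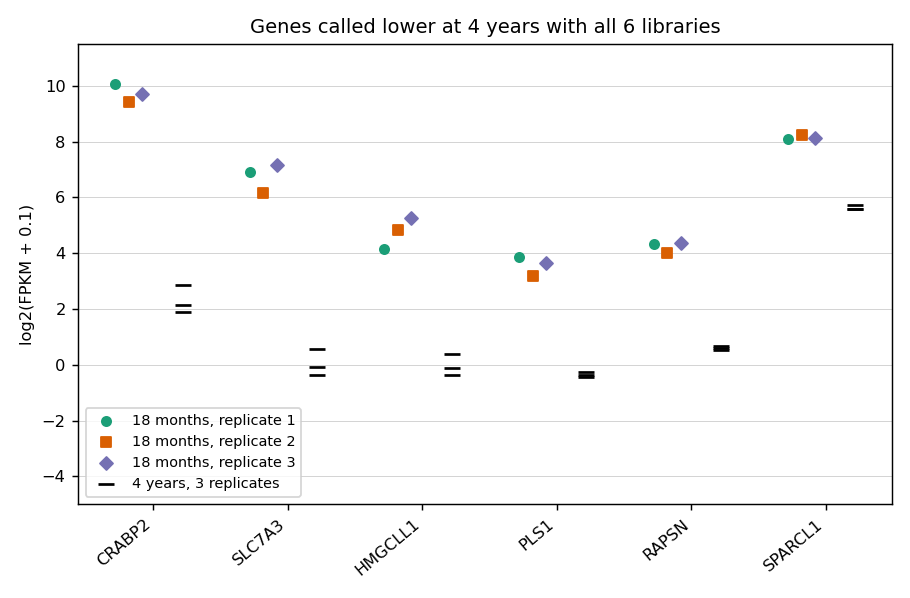
log2(FPKM + 0.1) of the 6 genes called lower at 4 years with all 6 libraries; each mark is 1 library, coloured for the 3 of 18 months and black for the 3 of 4 years. No 18-month mark comes down to a 4-year mark, and 18-month replicate 2 (orange squares) lies with or near the other libraries of its age.

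Gene lists for germ cell stages, somatic cells and shared processes (31 lists, 625 genes of the table, 607 tested) were read by their counts and medians. With all 6 libraries the lists held 1 DTG, SPARCL1 of the fibroblast and interstitial matrix list. With the 5 libraries, 244 of 313 tested genes of the 17 germ line lists were called higher and 9 lower. The background over all genes was 26.1% and 18.5%, and it holds for every 5-library count below. With all 6 libraries, 0 of the 313 were called in either direction. Replicate 2 of 18 months was set aside with its germ cell values known, so the 5-library calls of these genes are no independent evidence. Of the 10 somatic lists, 20 of 183 tested genes were called higher and 100 lower. The median over all tested genes was 0.01 with 6 libraries and 0.04 with 5. Scaling by library size alone moved that median to 0.19 and scaling by the upper quartile to -0.10, and no list median changed sign under the scalings tried.

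Germ line and somatic lists moved against each other across the libraries. Germ line lists together took 1.05%, 4.23% and 1.43% of all counts at 18 months and 6.58%, 6.11% and 6.54% at 4 years. Somatic lists took 10.9%, 5.19% and 5.67% at 18 months and 2.3%, 2.65% and 2.67% at 4 years. All values are relative to a library's total, and the part of the germ line genes in the somatic differences was not tested.

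**Figure D3:**
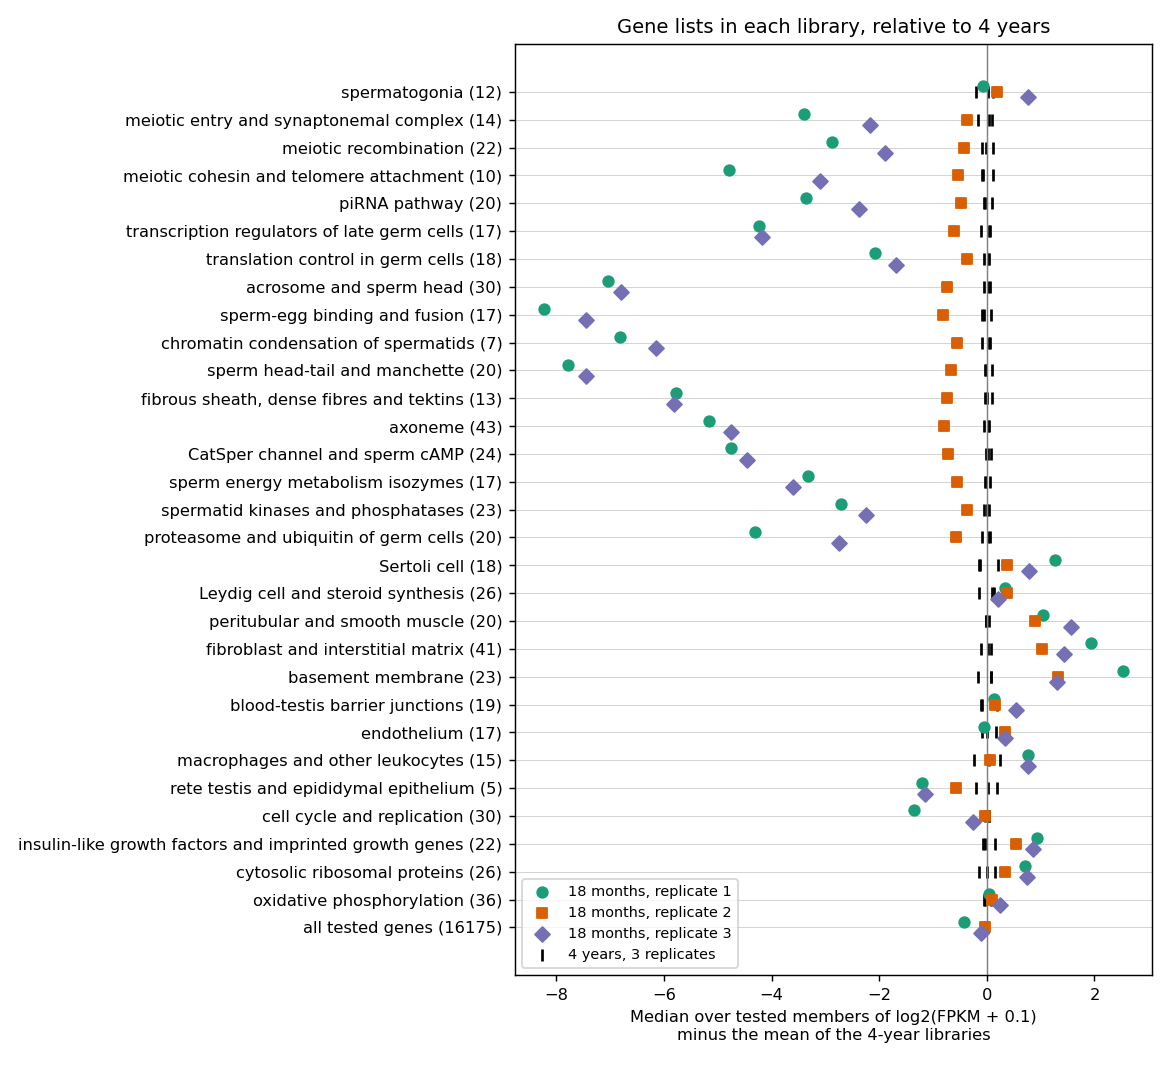
For each gene list (tested genes in brackets), the median over its genes of log2(FPKM + 0.1) minus the mean of the 4-year libraries, for each 18-month library (coloured) and each 4-year library (black bars). The lists from acrosome to axoneme lie between -8.23 and -4.75 in 18-month replicates 1 and 3 but between -0.82 and -0.56 in replicate 2, and the Sertoli, peritubular, matrix and basement membrane lists lie above 0 in all 3.

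Of spermatogonial genes, 1 of 12 tested members were called higher and 3 lower with 5 libraries, where 26.1% and 18.5% of all genes were. The median log2 fold change was -0.49 with 6 libraries and -0.55 with 5. UCHL1, a ubiquitin hydrolase of spermatogonia, had 553, 759 and 1524 FPKM at 18 months against 371, 626 and 419 at 4 years (log2 fold change -1.20 ± 0.41, adjusted p = 0.109 with 6 libraries; -1.34 ± 0.38, adjusted p = 0.0208 with 5). ZBTB16, a regulator of spermatogonial stem cells, had 8.11, 12.2 and 15.7 FPKM at 18 months against 7.39, 7.87 and 9.44 at 4 years (-0.70 ± 0.25, adjusted p = 0.0493 with 5), short of the fold threshold. GFRA1, the receptor for GDNF on the same cells, had 4.39, 2.01 and 3.95 FPKM at 18 months against 1.33, 3.24 and 1.96 at 4 years (-1.19 ± 0.42, adjusted p = 0.0458 with 5). UCHL1 and GFRA1, which overlapped between the ages over all 6 libraries, were called lower with 5, and so was PIWIL4, a PIWI protein of early germ cells (-1.79 ± 0.28, adjusted p = 0.00181). TSPAN8, a tetraspanin, was the gene called higher, with 0, 16.2 and 0 FPKM at 18 months against 25.4, 37.3 and 28.6 at 4 years. KIT, a receptor of differentiating spermatogonia, had 53.8, 53.5 and 45.05 FPKM at 18 months against 47.3, 39.4 and 42.1 at 4 years and was not called.

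Genes of meiosis differed among all 3 animals of 18 months. The list of meiotic entry and the synaptonemal complex took 0.0384%, 0.159% and 0.0735% at 18 months and 0.214%, 0.204% and 0.221% at 4 years of all counts, with replicate 3 above replicate 1 and below replicate 2. Of its 14 tested genes, 11 were at least 2-fold higher by scaled count in replicate 3 than in replicate 1, and 0 the other way. Over all 16175 tested genes these counts were 2296 and 1788. SYCP3, a lateral element of the synaptonemal complex, had 5.89, 76.3 and 43.3 FPKM at 18 months against 78.4, 59.7 and 71.6 at 4 years (1.38 ± 0.64, adjusted p = 0.105 with 5). SYCP1, its transverse filament, had 2.82, 23.3 and 10.2 FPKM at 18 months against 30.5, 22.4 and 28.4 at 4 years (1.91 ± 0.45, adjusted p = 0.00985 with 5). SYCE1, of its central element, had 2.48, 64.2 and 5.98 FPKM at 18 months against 112, 98.6 and 118 at 4 years (4.51 ± 0.34, adjusted p = 6.39e-05 with 5). In 18-month replicate 2, SYCP3 and SYCP1 thus lay inside the 4-year range and SYCE1 below it. Over the list, 11 of 14 tested members were called higher and 0 lower, and with 6 libraries 1 had an unadjusted p below 0.05.

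Recombination genes followed the same order of libraries. DMC1, the meiotic recombinase, had 6.41, 61.8 and 16.9 FPKM at 18 months against 108, 93.9 and 81.4 at 4 years (2.85 ± 0.36, adjusted p = 0.000676 with 5). SPO11, which cuts DNA to start recombination, had 1.64, 5.44 and 2.33 FPKM at 18 months against 12.6, 7.79 and 10.8 at 4 years (2.22 ± 0.35, adjusted p = 0.00187). MEIOB, a single-strand binding factor, had 0.74, 29.7 and 1.8 FPKM at 18 months against 34.96, 31.9 and 40.05 at 4 years (4.66 ± 0.37, adjusted p = 7.23e-05). In each the 4-year libraries exceeded every 18-month library, and replicate 3 exceeded replicate 1. Of the list, 17 of 22 tested members were called higher and 0 lower, with a median of 1.25 with 6 libraries and 2.11 with 5.

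Meiotic cohesin holds sister chromatids along the chromosome axis. STAG3, a meiotic subunit, had 3.64, 48.7 and 17.9 FPKM at 18 months against 65.1, 79.2 and 74.1 at 4 years (2.62 ± 0.55, adjusted p = 0.00631 with 5). REC8, the kleisin that closes the ring, had 0.97, 4.01 and 2.37 FPKM at 18 months against 4.57, 6.55 and 4.72 at 4 years (1.48 ± 0.39, adjusted p = 0.0163). SMC1B, a meiotic core subunit, had 3.03, 63.2 and 11.99 FPKM at 18 months against 76.6, 79.1 and 102 at 4 years (3.37 ± 0.50, adjusted p = 0.00135). REC8 was the lowest of these by FPKM in every library of both ages. On the list of cohesin and telomere attachment, 10 of 10 tested members were called higher and 0 lower.

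The piRNA pathway silences transposons in germ cells, and part of it comes into use only in meiosis. PIWIL1, the PIWI protein of pachytene spermatocytes and round spermatids, had 0.13, 206.3 and 0.98 FPKM at 18 months against 316, 295 and 361 at 4 years (9.02 ± 0.77, adjusted p = 0.000108 with 5). MAEL, needed for transposon silencing, had 15.5, 80.6 and 41.9 FPKM at 18 months against 139.8, 124 and 122 at 4 years (1.997 ± 0.35, adjusted p = 0.00277). PIWIL2, which acts from earlier stages on, had 14.4, 36.5 and 36.7 FPKM at 18 months against 35.8, 40.8 and 42.05 at 4 years (0.46 ± 0.31, adjusted p = 0.236). PIWIL1 was thus next to absent in 18-month replicates 1 and 3, MAEL was at a fraction of the 4-year level there, and PIWIL2 overlapped between the ages. Of the list, 14 of 20 tested members were called higher and 1 lower. The lower gene was HENMT1, the methyltransferase of piRNA ends, with 24.7, 24.01 and 41.7 FPKM at 18 months against 16.8, 18.6 and 17.01 at 4 years.

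Regulators of late germ cells were also divided. RFX2, a transcription factor of spermiogenesis, had 0.24, 12.02 and 0.44 FPKM at 18 months against 20.9, 20.2 and 21.6 at 4 years (5.73 ± 0.29, adjusted p = 1.23e-05 with 5). CREM, the cAMP-responsive activator of spermatid genes, had 3.31, 23.8 and 2.42 FPKM at 18 months against 55.9, 55.1 and 37.1 at 4 years (4.46 ± 0.35, adjusted p = 7.24e-05). TAF7L, a TFIID subunit of germ cells, had 86.8, 115 and 178 FPKM at 18 months against 83.7, 77.04 and 80.5 at 4 years (-0.90 ± 0.24, adjusted p = 0.0161) and was highest in 18-month replicate 3, short of the fold threshold. Over the list, 14 of 17 tested members were called higher and 0 lower.

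Germ cells store many mRNAs and translate them later. YBX2, which holds stored mRNA, had 0.45, 326 and 1.83 FPKM at 18 months against 545, 414 and 562 at 4 years (8.61 ± 0.58, adjusted p = 3.51e-05 with 5). BOLL, an RNA-binding protein needed in meiosis, had 1.96, 52.1 and 14.4 FPKM at 18 months against 78.2, 54.9 and 68.7 at 4 years (2.96 ± 0.67, adjusted p = 0.00837). PABPC1, the poly(A)-binding protein, had 59.6, 168 and 66.6 FPKM at 18 months against 229, 217 and 276 at 4 years (1.71 ± 0.21, adjusted p = 0.00056). All 3 were lowest in 18-month replicate 1 and higher in every 4-year library than in any of 18 months. On this list 10 of 18 tested members were called higher and 2 lower, the lower ones being MSI1, an RNA-binding protein, and CNBP, a nucleic acid-binding protein.

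The median gene of each spermatid list was far below its 4-year level in 18-month replicates 1 and 3. Relative to 4 years, the lists of the acrosome, sperm-egg fusion, chromatin, head-tail junction, fibrous sheath and axoneme had medians of -5.16 to -8.23 in replicate 1 and -4.75 to -7.45 in replicate 3 (log2 of FPKM + 0.1). Alone of these lists, the fibrous sheath list kept much of its share of all counts. It took 0.293% and 0.347% in replicates 1 and 3 against 0.58%, 0.51% and 0.53% at 4 years. With the 5 libraries, 41 of 43 axoneme genes, 26 of 30 acrosome genes, 17 of 17 fusion genes, 19 of 20 head-tail genes, 10 of 13 fibrous sheath genes and 5 of 7 chromatin genes were called higher. A single gene of these lists was called lower, the centrosomal CEP131 (-1.37 ± 0.27, adjusted p = 0.00465). With 6 libraries edgeR called 0 of them, and the list medians were 2.02 to 2.37.

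In the acrosome, ACRV1, a matrix protein, had 0.06, 305 and 1.05 FPKM at 18 months against 870.3, 818 and 495 at 4 years (10.14 ± 0.78, adjusted p = 6.45e-05 with 5). ZPBP, which binds the zona pellucida, had 2.73, 86.2 and 3.59 FPKM at 18 months against 165, 184 and 154 at 4 years (5.48 ± 0.22, adjusted p = 9.68e-06). SPACA1, a membrane protein, had 0.96, 228 and 2.87 FPKM at 18 months against 598, 698 and 435 at 4 years (8.07 ± 0.54, adjusted p = 3.5e-05). All 3 were present in 18-month replicate 2 below every 4-year library, ACRV1 at 42.9% of the scaled 4-year mean. IZUMO1, the sperm protein that binds the egg, had 0, 27.1 and 0.16 FPKM at 18 months against 46.3, 45.1 and 44.4 at 4 years. IZUMO2, its relative, had 1.47, 114.3 and 1.21 FPKM at 18 months against 160.3, 150.2 and 193 at 4 years. SPACA6, also needed for fusion, had 0.3, 2.22 and 0.79 FPKM at 18 months against 3.58, 4.01 and 3.3 at 4 years. The fusion genes together took 0.059%, 0.83% and 0.0598% at 18 months and 1.59%, 1.4% and 1.53% at 4 years of all counts.

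On the chromatin list, beside TNP1, CHD5, a remodeller of spermatid chromatin, had 0.68, 47.7 and 1.14 FPKM at 18 months against 88.2, 90.1 and 85 at 4 years (6.39 ± 0.28, adjusted p = 1.02e-05 with 5). BRDT, a bromodomain protein that reads acetylated histones from meiosis on, had 0.5, 29.3 and 2.4 FPKM at 18 months against 46.2, 40.8 and 48.3 at 4 years (4.77 ± 0.56, adjusted p = 0.000469). Both were higher in replicate 3 than in replicate 1. SPEM1, which helps to clear cytoplasm from the sperm head and neck, had 0, 54.5 and 0.13 FPKM at 18 months against 99.02, 122 and 122 at 4 years. SPEM2, its relative, had 0, 44.7 and 0.05 FPKM at 18 months against 78.7, 89.98 and 85.2 at 4 years. KLHL10, a ubiquitin ligase adaptor of spermatids, had 0, 79.3 and 0.13 FPKM at 18 months against 124, 132.6 and 149.9 at 4 years. SPEM1 and SPEM2 had at most 3 counts in 18-month replicates 1 and 3, and the 4-year mean was at least 744-fold and 866-fold higher (against a floor of 3 counts per library).

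In the tail, ODF1, of the outer dense fibres, had 0.11, 319 and 0.81 FPKM at 18 months against 672, 596 and 524 at 4 years (10.11 ± 0.59, adjusted p = 1.99e-05 with 5). ODF2, of the same fibres and of centrosomes, had 11.8, 431 and 19.03 FPKM at 18 months against 679, 576 and 719 at 4 years (5.02 ± 0.29, adjusted p = 2.05e-05). AKAP3, an anchor of the fibrous sheath, had 0.23, 54.5 and 0.41 FPKM at 18 months against 108, 99.8 and 84.4 at 4 years (7.97 ± 0.31, adjusted p = 9.68e-06). ODF2 alone of these passed 10 FPKM in 18-month replicates 1 and 3. The dynein heavy chains of the axoneme were not alike. DNAH1 had 0.03, 10.5 and 0.08 FPKM at 18 months against 19.7, 17.8 and 20.8 at 4 years (8.27 ± 0.38, adjusted p = 1.02e-05). DNAH2 had 0.17, 19.6 and 0.34 FPKM at 18 months against 29.3, 30.2 and 36.03 at 4 years (6.77 ± 0.33, adjusted p = 1.14e-05). DNAH5, known from airway cilia, had 0.21, 0.26 and 0.42 FPKM at 18 months against 0.42, 0.44 and 0.48 at 4 years (0.33 ± 0.32, adjusted p = 0.414) and was not called.

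Of the CatSper calcium channel and cAMP list, 19 of 24 tested members were called higher and 2 lower, the lower ones being HVCN1, a proton channel, and ATP2B4, a calcium pump. CATSPERD, a channel subunit, had 0.73, 7.48 and 1.28 FPKM at 18 months against 25.7, 25.5 and 12.6 at 4 years. CATSPER2, which lines the pore, had 0.23, 3.98 and 0.03 FPKM at 18 months against 4.43, 4.96 and 8.91 at 4 years. ADCY10, the soluble adenylyl cyclase, had 0.03, 4.45 and 0.06 FPKM at 18 months against 8.64, 9.7 and 8.05 at 4 years. All 3 were called higher with 5 libraries, by 4.21 ± 0.43, 5.28 ± 0.79 and 7.31 ± 0.31 on the log2 scale.

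Of the energy isozymes of sperm, 12 of 17 tested members were called higher and 0 lower. GAPDHS, the glycolytic dehydrogenase of the tail, had 1.73, 328.4 and 2.53 FPKM at 18 months against 538, 563 and 524 at 4 years (7.78 ± 0.28, adjusted p = 9.68e-06 with 5). PGK2, the germ cell phosphoglycerate kinase, had 0.26, 113.96 and 0.16 FPKM at 18 months against 183, 139 and 186 at 4 years (9.40 ± 0.38, adjusted p = 9.68e-06). ENO4, an enolase, had 3.93, 24.2 and 3.22 FPKM at 18 months against 43.2, 39.8 and 38.4 at 4 years (3.17 ± 0.25, adjusted p = 7.13e-05) and had the smallest change of the 3. Of the spermatid kinases and phosphatases, 14 of 23 tested members were called higher and 0 lower. TSSK3, TSSK6 and TSSK1B are testis-specific serine kinases. TSSK3 had 2.75, 42.3 and 4.66 FPKM at 18 months against 47.9, 47.04 and 62.9 at 4 years. TSSK6 had 0.94, 113.8 and 1.82 FPKM at 18 months against 165, 218 and 201 at 4 years. TSSK1B had 0.27, 32.3 and 0.29 FPKM at 18 months against 61.2, 72.1 and 66.4 at 4 years. In all 3 the ages did not overlap. Of the germ cell proteasome and ubiquitin list, 14 of 20 tested members were called higher and 0 lower. PSMA8, a core subunit of the meiotic proteasome, had 3.06, 76.3 and 10.1 FPKM at 18 months against 96.5, 87.05 and 106 at 4 years. PSME4, its activator, had 11.2, 55.8 and 17.5 FPKM at 18 months against 79.97, 84.5 and 89.4 at 4 years. Both were at a fraction of the 4-year level in 18-month replicates 1 and 3.

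ACE, angiotensin-converting enzyme, which has a shorter form made in germ cells, had 17.7, 567 and 10.2 FPKM at 18 months against 1191, 1188 and 970.01 at 4 years. The ages did not overlap, and 18-month replicate 2 held 52.7% of the scaled 4-year mean (log2 fold change 2.39 ± 1.32, adjusted p = 0.22 with 6 libraries; 5.44 ± 0.48, adjusted p = 0.00012 with 5).

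Several classic testis genes carried no symbol in the table, so 55 genes were read by the protein that their description names, which is a best match. Of the 29 that belong to germ line lists, 26 were called higher with the 5 libraries. Protamine-2, which packs sperm DNA, had 0.23, 932 and 2.77 FPKM at 18 months against 1759, 1402 and 1378 at 4 years. Nuclear transition protein 2 had 0, 1756 and 2.52 FPKM at 18 months against 2760.2, 1833 and 2256 at 4 years. Acrosin, the acrosomal protease, had 0, 153 and 0.56 FPKM at 18 months against 346, 411 and 297 at 4 years. In each, 18-month replicate 2 lay below all 4-year libraries and replicates 1 and 3 below 3 FPKM. For nuclear transition protein 2 the gap was narrow, with 1343 CPM in replicate 2 against 1346 in the lowest 4-year library. A-kinase anchor protein 4, the main protein of the fibrous sheath, had 0.49, 63.6 and 0.67 FPKM at 18 months against 103, 67.4 and 85.95 at 4 years. Its replicate 2 again lay below the 4-year range, but narrowly (100.7 CPM against 102.4 in the lowest 4-year library).

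The naming rule for the largest changes (a symbol, an average CPM above the median, ages not overlapping over all 6 libraries), applied to the 5-library fit after its values were known, gave FAM71B, C10orf120, SEL1L2, GALNTL5, CCDC105, TEX37, ERICH6, TMEM270, CCDC154 and TEX43 as the 10 most raised genes. Each had at most 3 counts in 18-month replicates 1 and 3, so only a bound can be given, at least 258-fold (TEX43) to 883-fold (FAM71B) higher. FAM71B had 0, 57.6 and 0 FPKM at 18 months against 65.2, 60.6 and 84.9 at 4 years. TMEM270 had 0, 18.6 and 0 FPKM at 18 months against 60.7, 68.4 and 37.6 at 4 years. Both were plain in 18-month replicate 2, FAM71B at 84.7% and TMEM270 at 34.4% of the scaled 4-year mean. With all 6 libraries their log2 fold changes were 1.83 ± 2.38 and 3.12 ± 2.07 (adjusted p = 0.562 and 0.287).

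**Figure D4:**
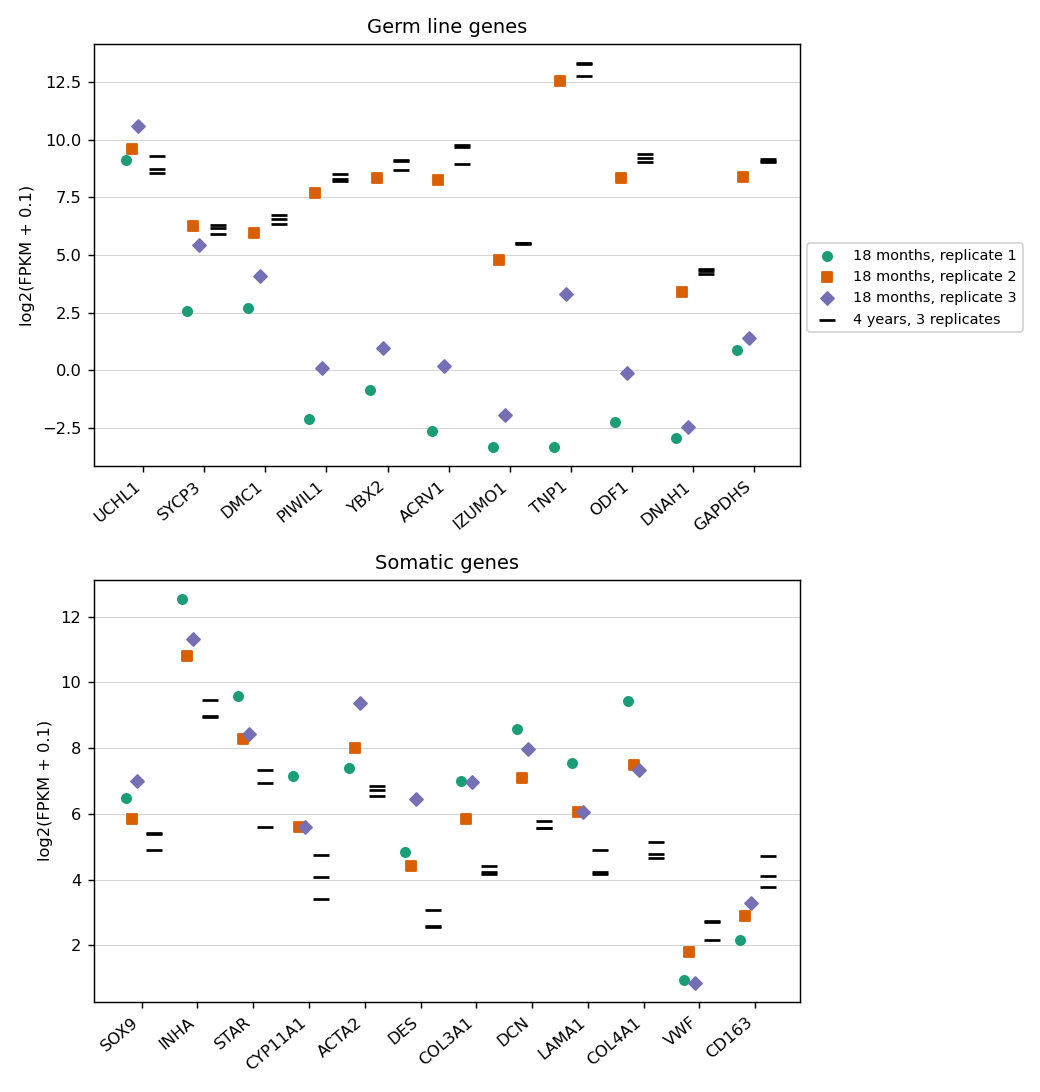
log2(FPKM + 0.1) of 11 germ line genes (top) and 12 somatic genes (bottom), with 1 mark per library, coloured for the 3 of 18 months and black for the 3 of 4 years. From PIWIL1 to GAPDHS, 18-month replicate 2 lies close below the 4-year libraries and replicates 1 and 3 far below; from SOX9 to COL4A1 every 18-month library lies above every 4-year library, and in VWF and CD163 every one lies below.

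Sertoli cell genes were mostly lower at 4 years. Their list took 1.03%, 0.415% and 0.543% at 18 months and 0.2%, 0.243% and 0.245% at 4 years of all counts, and 1 of 19 tested members were called higher and 12 lower with the 5 libraries. INHA, the alpha subunit of inhibin, had 5964, 1807 and 2568 FPKM at 18 months against 494, 703 and 509 at 4 years (log2 fold change -2.87 ± 0.61, adjusted p = 0.0703 with 6 libraries; -3.19 ± 0.45, adjusted p = 0.00107 with 5). SOX9, the factor that sets Sertoli fate, had 89.4, 56.9 and 128 FPKM at 18 months against 41.4, 42.6 and 29.7 at 4 years (log2 fold change -1.47 ± 0.37, adjusted p = 0.0757 with 6 libraries; -1.72 ± 0.22, adjusted p = 0.000656 with 5). WT1, which maintains it, had 47.3, 59.5 and 113 FPKM at 18 months against 43.9, 49.99 and 38 at 4 years (-1.06 ± 0.28, adjusted p = 0.0147 with 5). The ages did not overlap for INHA and SOX9 but did for WT1. FSHR, the receptor of follicle-stimulating hormone, overlapped between the ages through replicate 2, with 51.1, 21.8 and 25.7 FPKM at 18 months against 17.2, 23.9 and 17.5 at 4 years (-1.25 ± 0.36, adjusted p = 0.0212 with 5). INHBB, a beta subunit of inhibin and activin, was the gene called higher, with 2.27, 11.1 and 7.2 FPKM at 18 months against 16.9, 45.02 and 16.3 at 4 years (2.29 ± 0.61, adjusted p = 0.0159 with 5). No other member with a symbol was. Clusterin, secreted by Sertoli cells and read by description, had 15570, 8908 and 13753 FPKM at 18 months against 3215, 4669.6 and 2683 at 4 years (-2.30 ± 0.35, adjusted p = 0.00162 with 5), the ages not overlapping.

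Products of mature Sertoli cells did not all follow. Claudin-11, the main claudin of the blood-testis barrier, had 75.2, 574 and 749.6 FPKM at 18 months against 833, 1317 and 713 at 4 years. A beta-defensin, a secreted peptide of the male tract, had 27.2, 1942 and 740.04 FPKM at 18 months against 4676, 5463 and 3050.1 at 4 years (3.42 ± 1.13, adjusted p = 0.0366 with 5). In both, 18-month replicate 1 was far below replicates 2 and 3, and for claudin-11 replicate 3 lay within the 4-year range (1.09 ± 0.77, adjusted p = 0.256 with 5). GATA4, a factor of somatic testis cells, had 69.6, 37.6 and 73.6 FPKM at 18 months against 19.6, 18.2 and 13.9 at 4 years (-2.28 ± 0.21, adjusted p = 0.00016). GATA4 was thus called lower.

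In Leydig cells cholesterol is carried into mitochondria by STAR and turned into pregnenolone by CYP11A1. STAR had 768, 312 and 344 FPKM at 18 months against 123, 48.3 and 161 at 4 years (log2 fold change -2.36 ± 0.64, adjusted p = 0.082 with 6 libraries; -2.61 ± 0.56, adjusted p = 0.007 with 5). CYP11A1 had 142, 48.6 and 48.1 FPKM at 18 months against 16.8, 10.5 and 26.7 at 4 years (log2 fold change -2.42 ± 0.65, adjusted p = 0.0817 with 6 libraries; -2.70 ± 0.56, adjusted p = 0.00586 with 5). In both, replicates 2 and 3 of 18 months were close to each other and replicate 1 over 2-fold higher. NR5A1, the factor that switches on steroid enzymes, had 104, 50.9 and 68.99 FPKM at 18 months against 33.4, 27.5 and 30.6 at 4 years (-1.76 ± 0.27, adjusted p = 0.00148 with 5). Of 3 genes described as steroid 17-alpha-hydroxylase (CYP17A1), which leads to androgens, the most translated had 3099, 1149.8 and 1929 FPKM at 18 months against 606, 279 and 487 at 4 years (-2.71 ± 0.43, adjusted p = 0.00177 with 5), and how reads were split among the copies is not known. Insulin-like 3, a Leydig hormone of testis descent, had 36597, 20286 and 29734 FPKM at 18 months against 16627, 10901 and 10227 at 4 years (log2 fold change -1.42 ± 0.46, adjusted p = 0.102 with 6 libraries; -1.63 ± 0.36, adjusted p = 0.00752 with 5).

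Over the Leydig list, 4 of 26 tested members were called higher and 9 lower, beside 26.1% and 18.5% of all genes. HSD17B1, a steroid dehydrogenase called higher, had 0.6, 61.2 and 0.54 FPKM at 18 months against 92.8, 113.7 and 90.6 at 4 years, the order of libraries seen in spermatid genes. CYP51A1, an enzyme of cholesterol synthesis, had 86.7, 177 and 70.9 FPKM at 18 months against 211.7, 204 and 275 at 4 years (1.30 ± 0.25, adjusted p = 0.00434 with 5). PRLR, the prolactin receptor, was also called higher. DHCR7, which makes cholesterol in the last step, had 20.02, 11.7 and 15.6 FPKM at 18 months against 3.68, 5.22 and 4.84 at 4 years (-2.21 ± 0.27, adjusted p = 0.00062). Enzymes of cholesterol synthesis were thus found in both directions.

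Contractile genes of peritubular and vascular smooth muscle had a uniform direction. With the 5 libraries 0 of 20 tested members were called higher and 17 lower (median -1.66), and over all 6 libraries 17 of 20 had every 4-year library below every 18-month library with a fitted change of at least 2-fold, where 15.4% of all genes did. ACTA2, smooth muscle actin, had 167, 259 and 667 FPKM at 18 months against 93.9, 105 and 115 at 4 years (log2 fold change -1.95 ± 0.50, adjusted p = 0.0762 with 6 libraries; -2.14 ± 0.44, adjusted p = 0.00576 with 5). MYH11, smooth muscle myosin, had 21.4, 31.1 and 54.4 FPKM at 18 months against 14.2, 14.02 and 12.3 at 4 years (-1.65 ± 0.31, adjusted p = 0.00358 with 5). DES, desmin, had 28.6, 21.1 and 87.7 FPKM at 18 months against 5.88, 8.27 and 5.82 at 4 years (-3.29 ± 0.40, adjusted p = 0.000532 with 5). All 3 were highest in 18-month replicate 3. At 6 months ACTA2 stood at 32.01, 49.4 and 46.9 FPKM and MYH11 at 4.8, 5.86 and 3.5 FPKM, both below the 18-month and the 4-year range. The list as a whole did not share this. It took 0.24%, 0.31% and 0.338% of all counts at 6 months and 0.151%, 0.144% and 0.144% at 4 years. Its median relative to 4 years was 0.166, 0.691 and 0.757 at 6 months (log2 of FPKM + 0.1).

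The interstitial matrix list took 7.15%, 3.22% and 3.34% at 18 months and 1.14%, 1.43% and 1.38% at 4 years of all counts, and 13.3%, 9.86% and 9.28% at 6 months. With the 5 libraries 2 of 41 tested members were called higher and 29 lower. COL3A1, the type III fibrillar collagen, had 127, 57.7 and 124 FPKM at 18 months against 20.97, 17.9 and 18.6 at 4 years (log2 fold change -2.62 ± 0.41, adjusted p = 0.0691 with 6 libraries; -2.91 ± 0.20, adjusted p = 4.23e-05 with 5). COL1A2, of type I collagen, had 175.7, 84.7 and 155 FPKM at 18 months against 25.6, 28.1 and 28.4 at 4 years (-2.83 ± 0.21, adjusted p = 5.88e-05 with 5). DCN, decorin, which binds collagen fibrils, had 384, 137 and 253 FPKM at 18 months against 47.2, 54.7 and 47.7 at 4 years (-2.93 ± 0.27, adjusted p = 0.000163). In these 3 genes 18-month replicate 2 lay between the ages. SPARC, a matrix glycoprotein, had 29212, 14145 and 12286 FPKM at 18 months against 3550.2, 4362 and 4805 at 4 years (-2.56 ± 0.46, adjusted p = 0.00329). TIMP2, an inhibitor of metalloproteinases, had 39589, 15438 and 16200 FPKM at 18 months against 5839.9, 8149.9 and 7089 at 4 years (-2.28 ± 0.47, adjusted p = 0.00585). By mean FPKM at 18 months SPARC had rank 5 and TIMP2 rank 4 of all genes. The genes called higher were COL12A1, a collagen that sits on fibrils, and MFAP5, a microfibril protein. COL12A1 had 1.1, 11.7 and 2.46 FPKM at 18 months against 9.76, 25.9 and 20.5 at 4 years. MFAP5 had 1.06, 4.29 and 2.61 FPKM at 18 months against 3.82, 7.55 and 4.62 at 4 years. Both overlapped between the ages through 18-month replicate 2.

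The basement membrane list had the lowest median of the somatic lists, -2.07 with 6 libraries and -2.31 with 5, and 2 of 23 tested members were called higher and 18 lower with 5. COL4A1, a network-forming collagen chain, had 688, 180.3 and 162.6 FPKM at 18 months against 24.9, 35.5 and 27.4 at 4 years (log2 fold change -4.01 ± 0.77, adjusted p = 0.0691 with 6 libraries; -4.34 ± 0.61, adjusted p = 0.00107 with 5). COL4A2, its partner chain, had 354, 87.6 and 79.6 FPKM at 18 months against 10.2, 10.2 and 10.2 at 4 years (-4.71 ± 0.63, adjusted p = 0.000863 with 5). In both, 18-month replicate 1 was over 2-fold above replicates 2 and 3, which were close to each other. The laminin chains LAMA1 and LAMB1 repeated this order. LAMA1 had 187, 66.7 and 66.8 FPKM at 18 months against 17.9, 29.5 and 18.6 at 4 years (-2.70 ± 0.48, adjusted p = 0.00315). LAMB1 had 197, 79.1 and 81.7 FPKM at 18 months against 29.2, 25.7 and 47.6 at 4 years (-2.32 ± 0.46, adjusted p = 0.00508). NID1, nidogen, which links laminin to collagen, had 96.5, 49.04 and 85.6 FPKM at 18 months against 16.2, 20.02 and 22.6 at 4 years (-2.48 ± 0.22, adjusted p = 0.000131), its replicate 3 near replicate 1. The other laminin alpha chains were called in both directions, LAMA2 (-2.87, adjusted p = 0.000101) and LAMA4 (-1.35, adjusted p = 0.0026) lower, and LAMA3 and LAMA5, low at both ages, higher. LAMA3 had 0.71, 4.03 and 0.86 FPKM at 18 months against 4, 5.63 and 6.72 at 4 years (2.47 ± 0.25, adjusted p = 0.000217). LAMA5 had 0.34, 1.11 and 0.4 FPKM at 18 months against 1.88, 2.03 and 1.29 at 4 years (2.01 ± 0.29, adjusted p = 0.00125).

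Of junction genes of the blood-testis barrier, 3 of 19 tested members were called higher and 5 lower, where 26.1% and 18.5% of all genes were. GJA1, connexin 43, had 137, 104 and 152 FPKM at 18 months against 97.5, 118.98 and 96.6 at 4 years (-0.69 ± 0.18, adjusted p = 0.0134 with 5). TJP1, the scaffold ZO-1, had 15.6, 17.9 and 30.04 FPKM at 18 months against 15.9, 16.4 and 15.8 at 4 years (-0.70 ± 0.22, adjusted p = 0.0307). TJP3, the scaffold ZO-3, had 0.26, 1.49 and 0.77 FPKM at 18 months against 2.41, 3.11 and 2.3 at 4 years (2.16 ± 0.46, adjusted p = 0.00663). Of these TJP3 was called. ESPN, espin, which bundles actin at Sertoli-spermatid junctions, was called higher with 0.54, 112 and 12.04 FPKM at 18 months against 199, 287 and 176.2 at 4 years. CXADR, an adhesion receptor, was called lower with 117, 22.8 and 38.3 FPKM at 18 months against 10.5, 6.15 and 12.3 at 4 years. The other calls were NECTIN3 (higher) and CLDN5, CLDN1, CTNNA1 and MPDZ (lower).

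Of endothelial genes, 2 of 17 tested members were called higher and 4 lower, beside 26.1% and 18.5% of all genes. PECAM1, an adhesion protein of the vessel wall, had 1.88, 1.45 and 1.66 FPKM at 18 months against 1.2, 1.02 and 1.34 at 4 years (-0.80 ± 0.34, adjusted p = 0.0829 with 5). CDH5, the cadherin of vessels, had 4.79, 4.47 and 5.37 FPKM at 18 months against 2.86, 3.39 and 2.81 at 4 years (-0.97 ± 0.24, adjusted p = 0.0117). VWF, the clotting factor stored in endothelium, had 1.82, 3.4 and 1.71 FPKM at 18 months against 6.4, 6.59 and 4.36 at 4 years (1.48 ± 0.27, adjusted p = 0.00309). VWF was called higher, as was PROX1, a lymphatic factor, while ENG, CLDN5, ROBO4 and MMRN1 were called lower.

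Of macrophage and other leukocyte genes, 4 of 15 tested members were called higher and 7 lower, beside 26.1% and 18.5% of all genes. CD163, the haemoglobin scavenger receptor, had 4.41, 7.28 and 9.59 FPKM at 18 months against 13.6, 26.3 and 17.1 at 4 years (1.26 ± 0.36, adjusted p = 0.0218 with 5). CSF1R, the receptor of macrophage growth factor, had 22.5, 12.9 and 22.5 FPKM at 18 months against 13.02, 15.7 and 11.3 at 4 years (-0.99 ± 0.21, adjusted p = 0.00599). C1QA, of complement, had 128, 66.8 and 136 FPKM at 18 months against 74.1, 105 and 40.7 at 4 years (-1.07 ± 0.36, adjusted p = 0.0374). CSF1R and C1QA overlapped between the ages over all 6 libraries. AIF1, a calcium-binding protein listed as a macrophage marker, had 23.98, 125 and 35.6 FPKM at 18 months against 219.8, 175 and 187 at 4 years, with 18-month replicate 2 apart from replicates 1 and 3 as in germ cell genes.

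Markers of blood and of ducts were rare. The blood list had 4 genes in the table and 0 passed the filter, with ALAS2 and HBM listed at 0 in all 6 libraries and SLC4A1 at no more than 0.03 FPKM. The gene described as hemoglobin subunit alpha-1 had 3.06, 4.26 and 5.07 FPKM at 18 months against 7.23, 6.38 and 7.16 at 4 years. Of the 12 duct genes, 5 were tested. PAX8, a factor of duct epithelium, had 0.54, 0.57 and 0.95 FPKM at 18 months against 1.18, 1.56 and 1.42 at 4 years. CDH16, a duct cadherin, had at most 0.05 FPKM. EPCAM, an epithelial adhesion protein that germ cells also carry, had 43.1, 350.4 and 43.1 FPKM at 18 months against 489.9, 483 and 589 at 4 years and was called higher with 5 libraries, with DEFB121, a defensin.

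Of cell cycle and replication genes, 12 of 30 tested members were called higher and 2 lower, beside 26.1% and 18.5% of all genes. TOP2A, topoisomerase II, had 5.06, 35.5 and 15.7 FPKM at 18 months against 36.6, 35.6 and 44.3 at 4 years (1.74 ± 0.39, adjusted p = 0.00804 with 5). CDK1, the kinase of mitosis and meiosis, had 8.03, 40.7 and 20.97 FPKM at 18 months against 52.2, 35.6 and 45.8 at 4 years (1.37 ± 0.36, adjusted p = 0.016). PCNA, the replication clamp, had 165, 226 and 194 FPKM at 18 months against 232, 189 and 263 at 4 years (0.13 ± 0.20, adjusted p = 0.601), overlapping between the ages. In 18-month replicate 3, 13 of 30 genes were at least 2-fold above replicate 1, beside 2296 of all 16175 tested genes. The lower genes with a symbol were CCND3, a cyclin, and CDKN1B, an inhibitor of cyclin-dependent kinases. A gene without a symbol, described as cyclin-dependent kinase 4, was also called lower (-1.575 ± 0.20, adjusted p = 0.000698 with 5).

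Of insulin-like growth factor and imprinted growth genes, 1 of 22 tested members were called higher and 12 lower, beside 26.1% and 18.5% of all genes. IGF1 had 25.7, 24.9 and 24.8 FPKM at 18 months against 18.9, 23.4 and 22.7 at 4 years (-0.46 ± 0.24, adjusted p = 0.138 with 5). IGF1R, its receptor, had 47.7, 44.4 and 31.5 FPKM at 18 months against 47.4, 55.4 and 48.96 at 4 years (0.10 ± 0.27, adjusted p = 0.78). DLK1, an imprinted ligand of the Notch family, had 5.44, 4.91 and 6.3 FPKM at 18 months against 4.18, 9.72 and 6.17 at 4 years (-0.03 ± 0.36, adjusted p = 0.944). None of these was called. IGFBP7, a secreted binding protein, had 3442, 1129 and 1461 FPKM at 18 months against 242, 324 and 203 at 4 years and was called lower (-3.54 ± 0.46, adjusted p = 0.000763). MAGEL2, an imprinted ubiquitin ligase regulator, had 3.12, 0.7 and 0.89 FPKM at 18 months against 0.02, 0.04 and 0.18 at 4 years (-4.96 ± 0.91, adjusted p = 0.00353). IGFBP2, another binding protein, was the gene called higher (1.15 ± 0.30, adjusted p = 0.0147).

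Of the cytosolic ribosomal proteins with a symbol, 1 of 26 tested members were called higher and 12 lower, beside 26.1% and 18.5% of all genes. Their genes have near-identical copies among which reads may be split, so single values are uncertain. RPS4X had 238, 98.7 and 183 FPKM at 18 months against 47.5, 41.03 and 33.3 at 4 years. RPL12 had 192, 112 and 173 FPKM at 18 months against 63.1, 43.8 and 53.9 at 4 years. RPL10L, a copy of RPL10, had 390.2, 146 and 291 FPKM at 18 months against 63.2, 71.5 and 62.4 at 4 years. All 3 were called lower, with the 4-year libraries below every 18-month library.

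Of the nuclear genes of oxidative phosphorylation, 2 of 36 tested members were called higher and 3 lower, beside 26.1% and 18.5% of all genes. The list median was -0.39. NDUFB11, a subunit of complex I, had 313, 175 and 237 FPKM at 18 months against 125, 108 and 91.02 at 4 years (-1.59 ± 0.25, adjusted p = 0.00177 with 5). NDUFB1, of the same complex, had 204, 388 and 317 FPKM at 18 months against 515, 537 and 538 at 4 years (0.82 ± 0.18, adjusted p = 0.00809). NDUFA6, also of complex I, had 147, 312 and 144 FPKM at 18 months against 547, 425 and 388 at 4 years (1.42 ± 0.23, adjusted p = 0.0022). NDUFB11 was called lower and NDUFA6 higher, so subunits of 1 complex were found in both directions. COX7B2, the germ cell form of a cytochrome oxidase subunit, was the other higher gene (2.84 ± 0.37, adjusted p = 0.000767).

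By the naming rule, the 10 most lowered genes of the 5-library fit were EMID1, CRABP2, SLC7A3, HS6ST2, TFF2, DPT, COL4A6, FREM2, CHGA and PLOD2. By known function, EMID1 is a matrix protein with an EMI domain, DPT (dermatopontin) binds decorin, COL4A6 is a basement membrane collagen, FREM2 anchors epithelium to that membrane, and PLOD2 hydroxylates collagen. EMID1 had 571, 118 and 73.8 FPKM at 18 months against 0.65, 2.1 and 1.22 at 4 years (log2 fold change -7.92 ± 1.24, adjusted p = 0.0691 with 6 libraries; -8.27 ± 1.03, adjusted p = 0.000619 with 5). HS6ST2, a heparan sulfate sulfotransferase, had 96.2, 16.1 and 7.85 FPKM at 18 months against 0.42, 0.81 and 0.26 at 4 years (-7.03 ± 1.12, adjusted p = 0.00188 with 5). TFF2, a trefoil peptide, had 234, 41.7 and 41.6 FPKM at 18 months against 0.26, 3.25 and 1.85 at 4 years (-6.58 ± 0.98, adjusted p = 0.00139 with 5). In all 3 genes 18-month replicate 1 was far above replicates 2 and 3. DPT spread less, with 99.4, 42.9 and 63.1 FPKM at 18 months against 2.04, 2.29 and 1.93 at 4 years (log2 fold change -5.27 ± 0.49, adjusted p = 0.0691 with 6 libraries; -5.53 ± 0.34, adjusted p = 2.42e-05 with 5). CHGA, chromogranin A of secretory granules, had 957, 194 and 179 FPKM at 18 months against 17.5, 23.1 and 13.4 at 4 years, and 4104, 2419 and 1986 FPKM at 6 months.

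FPKM divides by an effective length that RSEM estimates in each library and weights by the transcripts of a gene, so it can differ between libraries. This length, computed as count over FPKM and library total and set against the median gene of the library, was compared for 7269 genes with at least 100 counts in each of the 6 libraries and a symbol. The ratio of 4 years to 18 months was 0.964 to 1.03 between the 5th and 95th percentiles, and 90 genes differed by at least 1.2-fold. ACE was among these, with a relative length of 2.41, 1.54 and 2.19 at 18 months and 1.52, 1.53 and 1.53 at 4 years (2.04 ± 0.454 against 1.53 ± 0.00218, SD, n = 3; exact permutation p = 0.1, two-sided, the lowest that 3 against 3 libraries allow). In 18-month replicate 2 ACE thus had about the 4-year length, and in replicates 1 and 3 a longer one.

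The lowest ratio was that of PRUNE2, with 6.5, 2.87 and 6.48 at 18 months and 1.91, 1.58 and 1.52 at 4 years. At 4 years its mean FPKM was 1.03 times that at 18 months but its scaled count 0.265 times, so that the change seen in this gene depends on the unit. PSD3 had 2.170, 0.928 and 2.040 against 0.927, 0.915 and 0.910. CEP112 had 1.63, 0.94 and 1.87 against 0.77, 0.79 and 0.86. Both had the order of libraries seen in ACE. RASGEF1B had 0.88, 0.87 and 0.9 against 0.51, 0.52 and 0.51, so all its 18-month libraries had about the same length. IQSEC2 had 2.26, 1.83 and 1.69 against 1.11, 0.78 and 0.99.

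At the other end, ABCC5, a transporter of cyclic nucleotides, had 0.78, 1.94 and 0.65 against 2.73, 2.9 and 2.69. ANAPC1, of the anaphase-promoting complex, had 1.91, 2.87 and 1.99 against 4.05, 4.06 and 4.06. ATXN7L1, ANK3, an ankyrin, and RGS3, a regulator of G protein signalling, followed with ratios of 1.7, 1.49 and 1.46. These 10 genes were chosen for their ratio, the ages did not overlap in any of them, and which transcripts lie behind the lengths was not tested.

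**Figure D5:**
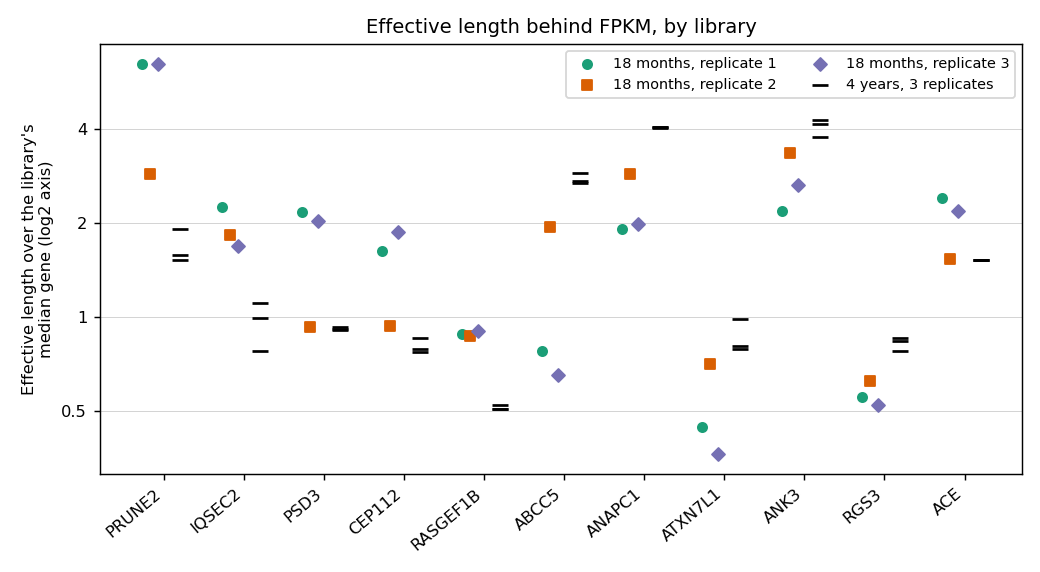
Effective length of 11 genes in each library, relative to the median gene of that library, on a log2 axis; coloured marks are the 3 libraries of 18 months and black bars the 3 of 4 years. In ACE, PSD3 and CEP112, 18-month replicate 2 (orange squares) lies near the 4-year bars and replicates 1 and 3 lie above; in RASGEF1B all 3 lie together.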

How the data were processed

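RFs were sequenced from the testes of 3 yaks of each age. The authors filtered reads with fastp, removed rRNA matches with Bowtie2, aligned RFs of 20 to 40 bases with STAR to a yak genome (BosGru 3.0) and quantified genes with RSEM, by their methods, which describe this for the 4-year yaks and the cattle-yaks. The deposited table gives RSEM expected counts per gene and library, which the authors did not normalise. It also gives FPKM, which the authors computed from these counts, the library totals and effective lengths. Its columns of fold changes and p-values were not used, and the library labels were taken from the column names.

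The members and gene lists were chosen with earlier results of these data known. Expected counts were rounded. Low genes were removed by filterByExpr, TMM set the scaling, and glmQLFit and glmQLFTest of edgeR 4.0.16 (R 4.3.3) gave the test, 3 libraries against 3 with no covariate. Adjusted p-values are edgeR's Benjamini-Hochberg values over all tested genes. The SE after a log2 fold change was worked back from the test, as the size of the change over the square root of the F statistic. The fit without 18-month replicate 2 (2 libraries against 3) repeats these steps. The script was tested on counts simulated from the means and spread of the 4-year libraries, with no library that stands apart. That tests the code, and it does not show how the fit performs with a library like 18-month replicate 2. DESeq2 1.42.0, limma 3.58.1, other scalings, no filter, all 12 libraries in 1 fit, a replicate block and leaving out each library were alternatives. The depth per library was 16304058 to 24542362 counts, and bounds against a floor of 3 counts cover counting error only. P-values measure the spread between the animals that enter a fit. In the fit without 18-month replicate 2 they leave out the distance of that library from the others of its age. That library was set aside with its values known, so p-values and SEs of that fit can understate the spread among 18-month animals.

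Rules named a part of the genes. They took the 10 largest changes in each direction among called genes with a symbol, an average CPM above the median and no overlap between ages. They also took the first 3 genes of each list in the table, ACE, and the 5 highest and 5 lowest effective length ratios. Called members of lists with 5 or fewer calls with all 6 libraries were added. Other list members, such as FSHR, GATA4, SPARC and AIF1, were named after their values were seen. Same-numbered libraries did not deviate together (r = 0.0045, -0.10 and -0.09), so the numbers do not pair animals. Medians of lists are described without a set test. No sequences are printed, since no table used here holds them.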

Additional observations from a re-analysis of the deposited data

How the results depend on the processing

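The count of higher DTGs (0 with all 6 libraries) was 2092 by DESeq2, 1133 with all 12 libraries in 1 fit, 4 by limma on log2(FPKM + 1) and 3 on log2(FPKM + 0.1). Leaving out 1 library gave 0 to 4277. The count of lower DTGs (6) was 2291 by DESeq2, 2350 with 12 libraries, 71 and 27 by limma, and 0 to 3033 with 1 library left out. The cause of these differences was not tested. With the replicate number as a block, 0 genes were called lower and 0 higher, and all 6 DTGs had an adjusted p of 0.161. Whether the numbers pair the animals is not known. HMGCLL1 was not called with library size alone (adjusted p = 0.0619), nor PLS1 with RLE size factors (0.0551) or the upper quartile (0.0547).

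Over 123 named genes and 15 alternatives, 1592 of 1843 values kept direction and side of the thresholds, 33 lost the call, 201 gained it and 17 changed sign. The cause of the sign changes was not tested. On the log2 scale, limma with 1 and with 0.1 added gave ANAPC1 -0.385 and -0.406, ANK3 -0.112 and -0.142, PRUNE2 0.048 and 0.063, and IQSEC2 0.944 and 1.154. IQSEC2 was 0.153 with library size alone. The upper quartile gave DLK1 -0.046, IGF1R -0.021 and PCNA -0.055. With 1 library left out, DLK1 ranged from -0.292 to 0.297, IGF1R from -0.102 to 0.331, PCNA from -0.036 to 0.175 and IQSEC2 from -0.226 to 0.256. With 3 animals an age, a missed threshold does not show that a gene was level between them.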

Other observations

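Genes that peaked in all 3 libraries of 18 months were sought by a rule made after values were seen, with no test. In 3 genes every 18-month library was at least 2-fold above every 6-month and every 4-year library and at 10 FPKM or more. Replicate 2 of 18 months was near the 4-year libraries (r = 0.974 to 0.975) and replicate 1 near the 6-month libraries (0.976 to 0.983). The low count therefore does not show that few genes peak at this age, and none was made without replicate 2. SLC7A3 and HMGCLL1, given above, had gaps of 4.47-fold and 2.63-fold between the lowest 18-month library and the highest other library. The third had no symbol and is described as 60S ribosomal protein L17, with 20.97, 13.78 and 20.14 FPKM at 18 months. It was at 0, 0.29 and 0 FPKM at 6 months and 0, 0 and 3.63 FPKM at 4 years, and such genes have copies among which reads may be split.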
